A study of Mus musculus with 2 samples.

Results

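The region studied holds the genes Wnt6, Ihh, Epha4 and Pax3 on mouse chromosome 1, with the CTCF binding sites around them. The 4 genes were chosen by name among 21631 protein-coding genes of the autosomes and X. The binding sites were all conservative peaks whose summit lay between 200 kb before the body of Wnt6 and 200 kb after the body of Pax3 (mm10, chr1:74554342-78397136), which gave 78 of 43393 peaks in the series, or of 43344 on the autosomes and X.

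Chromatin bound by CTCF was sequenced (ChIP-seq) from E14TG2a.4, mouse embryonic stem cells that are male and of strain 129/Ola. The series held 2 libraries from separate biosamples of this single line, biological replicates 1 and 2, and the labels name no treatment. There was 1 group and no second condition, so no test between conditions was possible, and replicates were set side by side and regions were described against chromosome 1 and the genome. The cells are pluripotent, and no limb tissue was measured.

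CTCF is a zinc-finger protein that binds a long DNA motif, blocks contact between neighbouring regulatory domains and stops cohesin as it extrudes chromatin loops, depending on the strand of its motif. Wnt6 encodes a secreted WNT ligand, Ihh encodes Indian hedgehog, a ligand that paces growth of cartilage in the bones of the limb, Epha4 encodes an ephrin receptor that guides axons and marks the limb bud, and Pax3 encodes a paired-box transcription factor of muscle and neural crest progenitors. The stretch around Epha4 is known for limb enhancers, and rearrangements that remove its borders with the Wnt6 and Ihh side or with the Pax3 side bring these enhancers to the neighbouring genes and are known to cause malformed digits in humans and mice.

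Sequences at a peak chosen for each of the genes, and at strong peaks between them, are shown first. They and their coordinates are from the mm9 genome, since the mm10 genome was not used here, at the best match to a CTCF motif in the peak of the mm9 pooled list. Each runs 5′ to 3′ in the direction of the motif, with the 19 motif bases in capitals and 20 bases on either side in lower case.

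Wnt6, 4.16 kb downstream of its start (chr1:74822561-74822619, forward strand): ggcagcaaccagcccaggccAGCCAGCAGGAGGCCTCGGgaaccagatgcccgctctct
Ihh, upstream of its start (chr1:75000917-75000975, reverse strand): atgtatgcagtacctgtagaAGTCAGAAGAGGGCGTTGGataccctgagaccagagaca
Nhej1, the strongest peak of the window (chr1:75047243-75047301, reverse strand): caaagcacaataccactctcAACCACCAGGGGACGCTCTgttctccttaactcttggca
Beyond the mm9 gene model of Slc4a3, the strongest mm9 peak from there to Epha4 (chr1:75650293-75650351, forward strand): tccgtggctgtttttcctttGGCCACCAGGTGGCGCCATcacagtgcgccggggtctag
Epha4, 1.39 kb upstream of its start (chr1:77512996-77513054, reverse strand): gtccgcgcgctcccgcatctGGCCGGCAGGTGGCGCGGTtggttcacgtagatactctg
Between Epha4 and Pax3, the strongest peak there (chr1:77969102-77969160, reverse strand): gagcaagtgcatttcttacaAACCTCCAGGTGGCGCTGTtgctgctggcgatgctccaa
Pax3, 70.6 kb upstream of its start (chr1:78264263-78264321, forward strand): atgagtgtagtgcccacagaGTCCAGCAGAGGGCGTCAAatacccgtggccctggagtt

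The pooled fold enrichments of these mm9 peaks were 8.58 at Wnt6, 7.46 upstream of Ihh and 35.03 in Nhej1. They were 22.08 beyond Slc4a3, 15.75 upstream of Epha4, 18.99 between Epha4 and Pax3, and 19.97 upstream of Pax3. All 7 were called in both replicates. A stronger mm9 peak, 27.85, lay at Slc4a3 itself, inside its mm9 gene model, and its sequence is not shown. The site beyond Slc4a3 lay 494 bp from the midpoint of a peak 2018 bp wide, and the others lay within 68 bp of their midpoints.

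CTCF peaks crowded around Wnt6 and Ihh and were sparse around Epha4 and Pax3. The window of 3.84 Mb held 20.3 peaks per Mb, against 14.6 on chromosome 1 and 17.0 over the autosomes and X. Within 250 kb of the gene start there were 30 peaks for Wnt6, 33 for Ihh, 5 for Epha4 and 6 for Pax3, where the median over 20924 protein-coding genes with a known start was 14, with quartiles of 7 and 22. Within 50 kb the counts were 12, 8, 2 and 0 in the same gene order, against a median of 3. Wnt6 and Ihh therefore stood above the upper quartile at both distances, and Epha4 and Pax3 below the lower quartile at 250 kb. The starts of Wnt6 and Ihh lie less than 250 kb apart, so their counts share peaks.

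**Figure D1:**
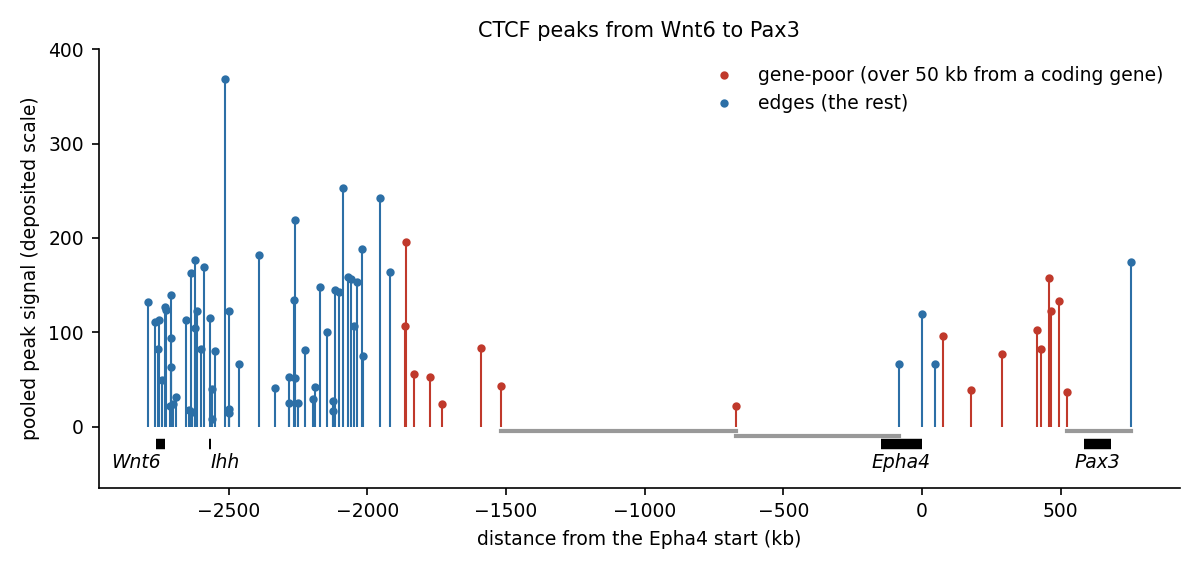
Pooled signal of the 78 conservative peaks (vertical axis, deposited scale) against distance from the Epha4 start in kb (horizontal axis, mm10 order, left to right along the chromosome). Red marks gene-poor peaks, blue marks the edges, black bars are the bodies of the 4 genes and grey bars the 3 longest intervals without a peak. Peaks crowd on the left, from Wnt6 to Slc4a3, and intervals of 848 kb and 588 kb lie between there and Epha4.

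Signal is the deposited value per peak, whose scale is not stated. For each replicate it was also divided by that replicate's median over the conservative peaks matched in both lists, 41.6 in replicate 1 and 38.7 in replicate 2, and is called relative signal, so that 1 is a typical peak. The median pooled signal was 94.8 in the window, against 77.2 for the whole set, and 46 of the 78 peaks lay above that set median. The read depth behind the lists is unknown.

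Wnt6 (chr1:74754342-74785322, forward strand) held 4 peaks inside its annotated body, which takes in upstream model transcripts, with pooled signals of 49.5 to 127.2. The peak nearest the Wnt6 start (chr1:74775890-74776205) lay 4156 bp downstream. Its relative signals were 0.418 in replicate 1 and 0.825 in replicate 2, with a mean of 0.621 ± 0.288 (SD, n = 2). It was below a typical peak in both replicates and weaker in replicate 1. The strongest peak of the body lay at its far end (chr1:74784580-74784749), with relative signals of 1.46 and 1.72 in replicates 1 and 2. The neighbouring gene Wnt10a, another WNT ligand, lies in the same run of peaks.

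Ihh (chr1:74945315-74951672, reverse strand) held 1 peak in its body (chr1:74948901-74949057), with a pooled signal of 114.9. Its relative signals were 1.41 in replicate 1 and 1.47 in replicate 2. The peak nearest the Ihh start (chr1:74954179-74954494) lay 2665 bp upstream and was weaker, with 0.471 in replicate 1 and 0.557 in replicate 2. The difference between the body peak, 1.44 ± 0.0467, and the upstream peak, 0.514 ± 0.0604 (SD, n = 2 each), was larger than the spread between replicates.

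Epha4 (chr1:77367182-77515107, reverse strand) had a peak 1367 bp upstream of its start (chr1:77516355-77516559), with a pooled signal of 119.3. Relative signals there were 1.40 in replicate 1 and 1.55 in replicate 2, a mean of 1.47 ± 0.107 (SD, n = 2). The only peak inside the body of 148 kb (chr1:77433214-77433529) was weaker, with 0.875 in replicate 1 and 0.753 in replicate 2. Of the 4 genes, Epha4 had the peak nearest its start and also the longest way to a next peak beyond its body, 521 kb from the body's end.

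Pax3 (chr1:78101267-78197136, reverse strand) held 0 peaks in its body and 0 within 50 kb of its start. The nearest peak (chr1:78267590-78267813) lay 70570 bp upstream, 41843 bp from Sgpp2, a gene of sphingosine phosphate breakdown. It was strong and nearly equal in the replicates, with relative signals of 2.16 in each and a pooled signal of 174.0. On the downstream side the nearest peak (chr1:78036748-78037063) lay 64.4 kb from the Pax3 body, with 0.393 in replicate 1 and 0.459 in replicate 2. The upstream flank of Pax3 was the stronger one in both replicates, and neither flanking peak lay close to the gene.

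Between Ihh and Epha4 the peaks fell into a dense part and a nearly empty part, divided at Slc4a3, which encodes an anion exchanger. The gap of 2416 kb held 42 peaks, or 17.4 per Mb. From Ihh to the end of Slc4a3 there were 26 coding genes and 32 peaks, or 52.7 per Mb. From there to Epha4 there were 0 coding genes and 10 peaks over 1808 kb, or 5.53 per Mb. A peak 299 bp beyond Slc4a3 (chr1:75559564-75559851) stands at this turn, with relative signals of 2.99 in replicate 1 and 3.04 in replicate 2 and a pooled signal of 241.9, the third highest of the window.

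Clusters were runs of at least 3 summits, each at most 20 kb from the next. The clusters that lay wholly inside the gap were 4, all on the Ihh side of Slc4a3. The Ihh cluster, given below, also reached into the gap. The first, in Nhej1, a gene of DNA end joining, had 4 summits over 16.8 kb and the strongest peak of the window (chr1:75000569-75000855). Its pooled signal of 368.4 ranked 23 of 43344, and its relative signals were 4.26 in replicate 1 and 4.95 in replicate 2. Of the 3 other summits of this cluster, 2 were weak, with pooled signals of 14.8 and 18.4, and lay within 500 bp of the summit of a peak of 122.1. The summit of 14.8 was matched in neither replicate list, and that of 18.4 in replicate 2 only. With summits within 500 bp merged, this run had too few summits for a cluster.

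The second cluster, in and beside Ptprn, which encodes a protein of secretory granules, had 6 summits over 31.6 kb. Its strongest peak (chr1:75254326-75254554) had relative signals of 3.07 in replicate 1 and 2.39 in replicate 2. The third lay between Dnpep and Des, the gene of the muscle filament desmin, and had 3 summits. The strongest (chr1:75342971-75343152), 17247 bp from Des, had 1.86 and 1.76 in replicates 1 and 2. The fourth began 3015 bp from Des and ran over Speg, a muscle kinase gene, and on to Obsl1, a gene of the cytoskeleton. It had 12 summits over 128 kb. Its strongest peak, in Speg (chr1:75425851-75426090), had 3.15 in replicate 1 and 3.12 in replicate 2, and the median pooled signal of the 12 was 143.8.

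Between Epha4 and Pax3, over 586 kb with 0 coding genes, 11 peaks were found, or 18.8 per Mb, and 0 clusters by the same rule. They were not evenly spread. From chr1:77930870 to chr1:78036906 there were 6 summits which form 1 cluster when steps of up to 40 kb are allowed. This run spanned 106 kb, began 416 kb from the Epha4 body and ended 64.4 kb from the Pax3 body. Its median pooled signal was 112.4, and 5 of its 6 peaks were above the median of the whole set. Its strongest peak (chr1:77972465-77972655) had relative signals of 2.46 in replicate 1 and 1.44 in replicate 2, and its pooled signal of 157.9 was the highest between both genes. The peaks between Epha4 and Pax3 were thus fewer and farther apart than those from Ihh to the end of Slc4a3, a stretch with 26 coding genes. Their density was nevertheless above the 14.6 per Mb of chromosome 1. Borders between domains were not measured here.

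The other 3 clusters of the window lay around Wnt6 and Ihh. The cluster from Prkag3, a kinase subunit of energy sensing in muscle, through Wnt6 to beyond Wnt10a had 12 summits over 74.8 kb, the strongest beyond Wnt10a (chr1:74808235-74808403) with 1.57 in replicate 1 and 1.91 in replicate 2. The next, over Fev, a factor of serotonin neurons, Cryba2, a lens crystallin, and Cfap65, a flagellum gene, had 9 summits over 64.9 kb, the strongest in Cryba2 (chr1:74893565-74893755) with 1.86 and 2.53 in replicates 1 and 2. The Ihh cluster had 4 summits over 15.7 kb, with the body peak of Ihh as its strongest. In all, 50 of the 78 window peaks, 64.1%, lay in a cluster, against 41.1% on chromosome 1 and 49.2% over the autosomes and X, sets that include the window. The 2 clusters with 12 summits were large ones. Of the 270 clusters of chromosome 1, these 2 included, 1.48% had as many or more. Over the autosomes and X it was 1.92% of 4782 clusters.

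Around Epha4 lay the longest stretches without a conservative peak. The longest, 848 kb from chr1:75997454 to chr1:76845725, was the 16th longest of 2790 intervals between neighbouring peaks on chromosome 1. The next, 588 kb, ran from there to the peak inside Epha4 and ranked 46. Only 1 weak peak (chr1:76845567-76845882) stood between these intervals, with relative signals of 0.220 in replicate 1 and 0.326 in replicate 2, and the optimal set did not list it. The third interval, 231 kb long, held the whole of Pax3 and ranked 154. The median step between neighbouring peaks was 15.1 kb in the window and 26.5 kb on chromosome 1.

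The replicates' own lists, which also hold background entries, had further entries in these intervals, all of them weak. In the 848 kb interval the strongest entries reached relative signals of 0.277 in replicate 1 and 0.269 in replicate 2, at different places, and neither was matched within 100 bp in the other replicate. In the 588 kb interval the strongest entries had 0.339 in replicate 1 and 0.340 in replicate 2, again at different places and unmatched. In the body of Pax3 they had 0.186 in replicate 1 and 0.331 in replicate 2, likewise unmatched. In the whole 231 kb interval the strongest entry of replicate 1 had 0.260 and was matched in replicate 2, with a signal of 5.76 there. Of all further entries of replicate 1, 0 were matched in replicate 2 in the 848 kb interval, 3 in the 588 kb interval and 2 in the 231 kb interval. The optimal set listed 1 peak in the second interval (chr1:77184026-77184341), with a pooled signal of 19.3, and 0 in the others. Lists of peaks above a threshold do not show that binding was absent.

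The mm9 lists, broad-peak calls on the other build, showed the same layout. The window as drawn from the mm9 gene models held 72 pooled peaks, 68 of replicate 1 and 65 of replicate 2. Their 3 longest intervals were 848 kb, 588 kb and 231 kb, with 0 peaks of either replicate inside and 0% unknown bases. Sites over the motif score described below were fewer there as well, at 37.7, 35.7 and 47.7 per Mb of sequence, against 96.4 per Mb over the mm9 window. These counts are of sequence, whether or not CTCF was bound. The score is one that 1% of flanking windows pass, so such counts include many background matches. Base composition was not compared, and whether the lower counts bear on the missing peaks was not tested.

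Peaks were sparser away from genes than near them in the window, as on chromosome 1. Gene-poor sequence, more than 50 kb from the body of any protein-coding gene, made up 2.19 Mb in 2 stretches and held 17 peaks, or 7.75 per Mb. The edges, the remaining 1.65 Mb, held 61 peaks, or 37.0 per Mb. The ratio was 0.209, against 0.303 on chromosome 1 and 0.284 over the autosomes and X. Taken over both stretches, the gene-poor density was close to that of chromosome 1, 6.06 per Mb. The edges were denser than those of chromosome 1, 20.0 per Mb.

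**Figure D2:**
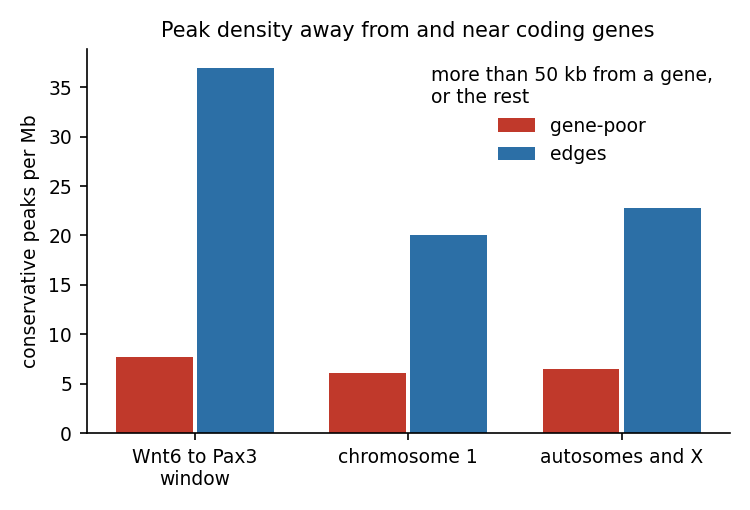
Conservative peaks per Mb (vertical axis) in gene-poor sequence (red, left) and in the edges (blue, right), for the window, chromosome 1 and the autosomes and X. Gene-poor bars lie between 6.06 and 7.75, and the edges of the window reach 37.0, against 20.0 and 22.7 for the larger sets.

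The 2 gene-poor stretches differed. The one between Slc4a3 and Epha4, 1708 kb long, held 8 peaks, or 4.68 per Mb, and its median relative signals were 0.587 in replicate 1 and 0.740 in replicate 2. The one between Epha4 and Pax3, 486 kb long, held 9 peaks, or 18.5 per Mb, with medians of 1.13 in replicate 1 and 1.21 in replicate 2. The second was thus denser and its typical peak stronger in both replicates. Against the 6.06 per Mb of gene-poor sequence on chromosome 1, the first was sparser and the second much denser. The strongest peaks were 195.3 in the first (chr1:75653620-75653857, beyond Slc4a3) and 157.9 in the second. Over both stretches the median pooled signal was 82.1, against 104.7 in the edges, a ratio of 0.784, and the ratio on chromosome 1 was 0.786. The replicates' own ratios were 0.737 in replicate 1 and 0.855 in replicate 2, so signal was weaker away from genes in each, and the value for chromosome 1 lay between them.

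The replicates gave the same picture of the region, but the conservative peaks had been chosen for agreement between these same replicates. The match and correlation given here, and the low share of differences given next, were therefore favoured in advance. Of the 78 peaks, 73 had an entry within 100 bp in both replicate lists, 93.6% (exact 95% interval 85.7 to 97.9), against 95.5% of all conservative peaks. The 5 others were weak, with pooled signals of 8.03 to 18.4, and 4 of them lay within 250 bp of another summit. Across the 73 peaks the relative signals of the replicates had a Spearman's rho of 0.923, against 0.910 over all matched peaks. Neighbouring peaks share libraries and local sequence, so these are descriptions across peaks. Intervals on shares cover counting error only.

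Few peaks of the region differed between the replicates. The relative signals were over 1.5-fold apart at 9 of 73 peaks, 12.3% (exact 95% interval 5.80 to 22.1), where 17.4% of all 41382 matched peaks were. Replicate 1 was higher at 2 of them, against a background of 8.33%, and replicate 2 was higher at 7, against 9.07%. The background of 17.4% lay inside the interval, and the peaks nearest the Epha4 and Pax3 starts were not among the 9.

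The largest difference with replicate 1 higher was in Nhej1 (chr1:75052140-75052455), with 1.07 in replicate 1 and 0.532 in replicate 2. The strongest peak between Epha4 and Pax3, given above, was the other of this direction, at 1.71-fold. With replicate 2 higher, the largest was near Dnajb2, a chaperone gene (chr1:75234656-75234971), with 0.407 in replicate 1 and 0.905 in replicate 2. Next were a peak in Atg9a, a gene of autophagy (chr1:75182179-75182494), with 0.308 in replicate 1 and 0.681 in replicate 2, and the peak nearest the Wnt6 start. Of these 5 peaks, 4 were below a relative signal of 1 in at least 1 replicate.

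**Figure D3:**
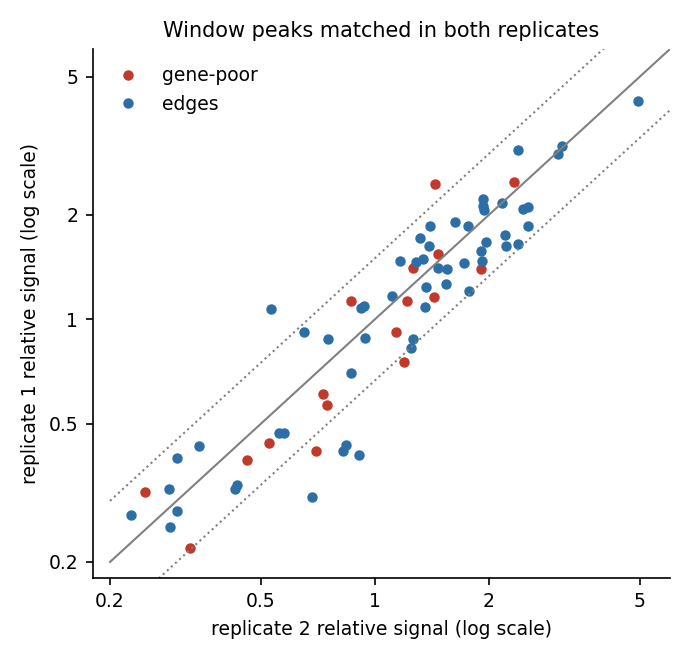
Relative signal in replicate 1 (vertical axis, log scale) against replicate 2 (horizontal axis, log scale) for the 73 window peaks matched in both lists, red for gene-poor and blue for edges. The solid line marks equality and the dotted lines a 1.5-fold difference, outside which 9 peaks lie.

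A CTCF motif of 19 bases was learned from the 5000 strongest mm9 peaks of odd-numbered chromosomes other than 1, and its most frequent bases read GGCCACCAGAGGGCGCTAG (17.6 bits, both strands searched). Of the 72 mm9 peaks of the window, 35 had a match no more than 50 bp from the peak's middle, 48.6% (exact 95% interval 36.7 to 60.7). The score needed was one that 1% of flanking windows pass. Among 20605 peaks on chromosomes not used for learning, 55.1% had one, a value inside that interval. Taken over the whole peak, 57 of 72 had a site over the score, 79.2%, where 10.8% of flanking windows of the median peak width, 944 bp, did. The strand of the motif is given for these 57 sites.

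Motif strands differed along the region. Between Ihh and Epha4, 18 of 29 sites were on the forward strand and 11 on the reverse. Between the end of Slc4a3 and Epha4, 5 of 6 were forward. Between Epha4 and Pax3, 2 of 9 were forward and 7 reverse. The sites beyond Slc4a3 and those beyond Epha4 therefore mostly pointed towards each other across the Epha4 stretch, which counts of 6 and 9 only describe. Forward sites were also the more frequent from the start of the window to the end of Ihh, with 13 forward and 5 reverse. Over the whole window 34 were forward and 23 reverse. The forward excess beyond Slc4a3 was therefore not particular to that part. The 3 peaks that bound the 848 kb and 588 kb intervals had no site over the score.

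**Figure D4:**
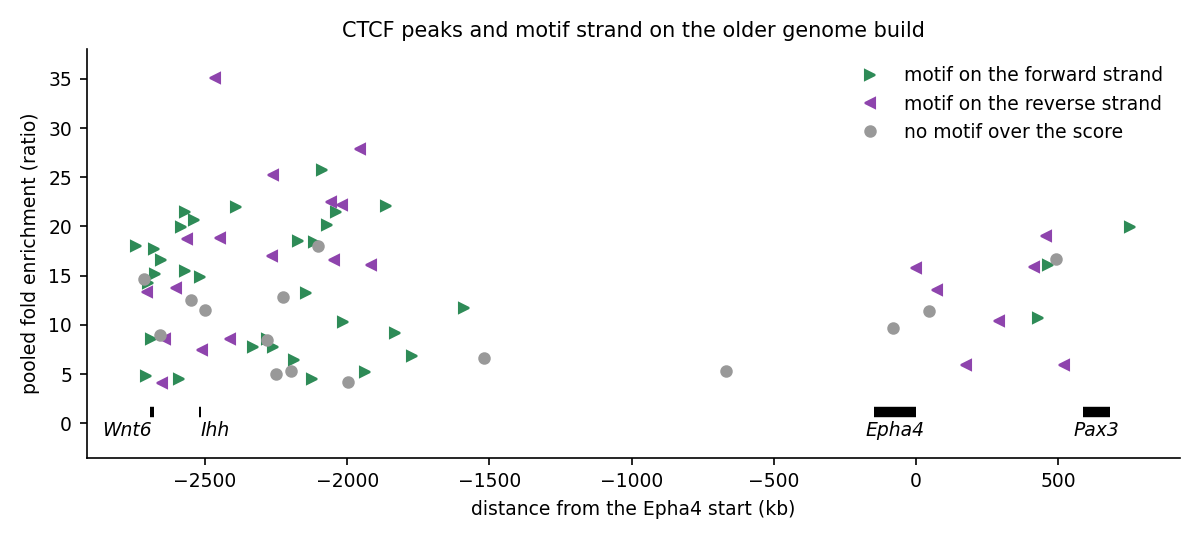
Pooled fold enrichment of the 72 mm9 peaks (vertical axis, ratio) against distance from the Epha4 start in kb (horizontal axis), with the strand of the best motif site as right-pointing green (forward) or left-pointing purple (reverse) triangles and grey circles for peaks with no site over the score. Left of the empty stretch 5 of 6 sites beyond Slc4a3 are forward, and right of Epha4 7 of 9 are reverse.

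Some sites of the region were near copies of one another, taken as at least 75% of 59 bases identical to another site of the window. By this threshold, 5 sites beside or in Prkag3, Fev, Dnajb2 and Speg were 86.4% to 94.9% identical, and 2 sites between Epha4 and Pax3 were 79.7% identical. These are shown because their flanks match as well as their motifs, in the same layout as above. The sites near Dnajb2 and in Speg stand for the group of 5.

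Near Dnajb2 (mm9, chr1:75229228-75229286, forward strand): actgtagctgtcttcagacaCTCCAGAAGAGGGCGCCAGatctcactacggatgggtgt
In Speg (mm9, chr1:75387102-75387160, forward strand): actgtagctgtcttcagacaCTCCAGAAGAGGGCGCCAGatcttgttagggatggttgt
Nearer Epha4 (mm9, chr1:77801897-77801955, reverse strand): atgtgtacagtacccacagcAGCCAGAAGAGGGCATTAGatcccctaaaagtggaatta
Nearer Pax3 (mm9, chr1:77927416-77927474, reverse strand): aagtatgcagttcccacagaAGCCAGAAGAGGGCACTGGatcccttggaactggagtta

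The group of 5 had fold enrichments of 4.50 to 25.74, with a median of 4.78, and the pair between Epha4 and Pax3 had 10.41 and 15.90. The 50 sites with no copy at that threshold had a median of 15.9. Likeness over a part of the 59 bases was not counted. A site among these 50, beyond Wnt10a (mm9, chr1:74870352-74870410), had the same 19 motif bases as the site nearer Pax3. Of the group of 5, the peak with 25.74, in Speg, had its copy 506 bp from the midpoint. Whether reads were placed as well in such copies as elsewhere was not tested.

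Among genes of their own families, Wnt6, Ihh and Epha4 had a peak within 10 kb of the start, as most members did, and Pax3 was the farthest of its family. Of 19 Wnt genes, 14 had a conservative summit within 10 kb, and Wnt6 was 10th nearest of them. Of 11 hedgehog pathway genes, 6 had one. Ihh at 2.67 kb and Shh at 2.85 kb, the ligand that patterns the limb from thumb to little finger, were alike in distance. Dhh, another hedgehog ligand, had 6.18 kb. The effectors differed widely, with Gli1 at 0.916 kb, Gli2 at 21.5 kb and Gli3 at 133.9 kb. Of 9 Eph A receptor genes, 6 had one, with Epha4 at 1.37 kb second after Epha1 at 0.188 kb. Of 9 Pax genes, 4 had one. Over the 4 lists 30 of 48 had one, 62.5%, against 44.1% of 20924 protein-coding genes, which is a description of these lists.

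Pax3 at 70.6 kb came after Pax6 at 52.3 kb, the eye development gene, and far after Pax7 at 7.69 kb, the closest relative of Pax3, and Pax1 at 2.47 kb. The median over the Pax genes was 15.1 kb, close to the 12.5 kb of all protein-coding genes.

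**Figure D5:**
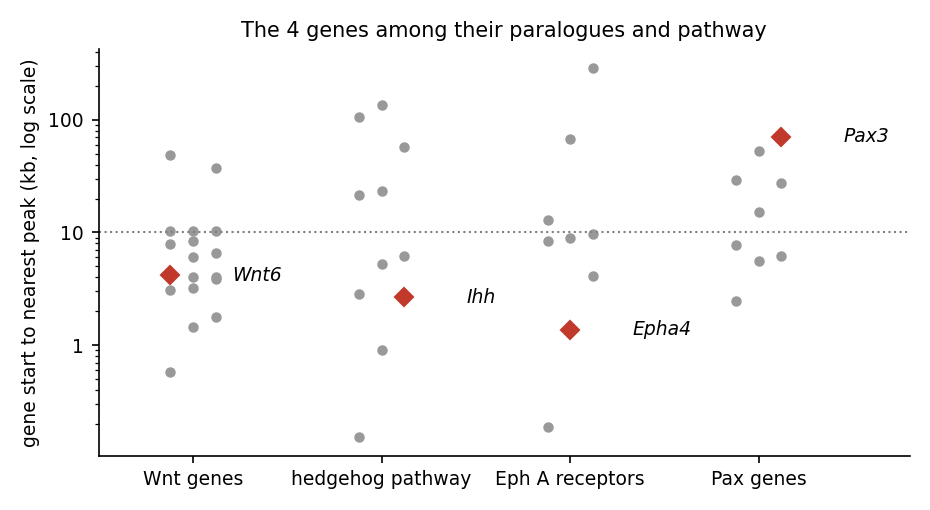
Distance from the gene start to the nearest conservative peak (vertical axis, kb, log scale) for 19 Wnt genes, 11 hedgehog pathway genes, 9 Eph A receptor genes and 9 Pax genes, one point per gene, with the 4 genes of the region as red diamonds. The dotted line is 10 kb, and Pax3 is the highest point of its group at 70.6 kb.

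Genes elsewhere with the most similar peak layout were found by the distance between summed relative signals, log2(1 + sum), over 10 bins up to 500 kb on each side of the start, among 19769 genes on other chromosomes. For Pax3 these were Clca4b on chromosome 3 (distance 0.725) and Olfr447 on chromosome 6 (0.746), where the median over all genes was 4.06. The medians for the other 3 genes were higher, up to 5.50. For Epha4 they were Havcr1 on chromosome 11 and Eid1 on chromosome 2 (1.42 and 1.47). For Wnt6 they were 9530053A07Rik on chromosome 7 and Sft2d1 on chromosome 17 (1.88 and 2.06). For Ihh they were Bik on chromosome 15 and Akt1 on chromosome 12 (1.69 and 1.70). The smallest distances were lower for the sparse surroundings of Pax3 and Epha4 than for the crowded ones of Wnt6 and Ihh. Distances of this kind tend to be small where bins hold little signal, so this difference does not show a closer likeness in layout.

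The conservative and optimal sets listed nearly the same peaks here. The optimal set held 80 peaks in the window, against 78. Of the conservative peaks 3 had no overlap in the optimal set, in Fev, in Ptprn and in the empty stretch before Epha4, with pooled signals of 15.05 to 24.4. Of the optimal peaks 6 had none in the conservative set, with 16.9 to 39.2, and 1 of these lay between Slc4a3 and the 848 kb interval.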

How the data were processed

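Peak lists of 2 CTCF ChIP-seq libraries, biological replicates 1 and 2 of the line E14TG2a.4, were used as deposited. Per the deposited file descriptions, the mm10 lists hold peaks and background for each replicate and pooled, made as input for IDR (irreproducible discovery rate, a measure of agreement between replicates), and the conservative and optimal IDR sets. Their column 7 is a signal per peak from the authors' caller. The deposited mm9 lists are broad peaks with a fold enrichment, a ratio on the authors' scale. The caller, aligner and IDR threshold were not given in the sources used here, and no read counts were used, so depth and the precision it gives are unknown. The autosomes and X were used.

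Summits within 100 bp were matched to the nearest entry of each replicate list. Gene bodies on mm10 came from RefSeq (GRCm38.p6), starts from its promoter table, and 3650 starts, Pax3 among them, from the strand in GENCODE vM1. The motif was learned on mm9 by expectation maximisation from the most enriched sequence of 8 bases. Coordinates were not converted between builds. Steps were tested on simulated data. With 2 samples of 1 group no test was run, and p-values are not given.

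The first motif learner gave other most frequent bases (GGCCAGAAGAGGGCGCCAG) and was replaced after its result was seen. In all, 3 learners were run, and the 1 kept had the highest shares of training and held-out peaks. The members and lists were chosen with earlier results of these data known. Named are the peaks nearest each start, the strongest of each body, cluster, gene-poor stretch and of the window, and those that differed most between replicates, with the genes they lie in or near, and the family genes named beside the 4 genes were chosen after their values were seen. Copies of 1 motif site were looked for after seeing the sequences. Python 3.11.15, NumPy 2.4.6, pandas 2.3.3 and SciPy 1.17.1 were used.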

Additional observations from a re-analysis of the deposited data

How the results depend on the processing

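Of 63 values recomputed under alternatives, 34 moved little and 29 moved further. Little meant less than the spread between replicates, the exact interval of a share or 1.5 times a count. A change of direction was looked for only in the density and signal ratios, and 0 of these changed direction. With only the strongest 20000 conservative peaks, the window held 40 peaks and the Ihh to Epha4 gap 1 cluster. The density ratio of gene-poor sequence to edges was then 0.159, the signal ratio 0.857, the share over 1.5-fold apart 2.5% and the family share 47.9%, against 25.5% of all protein-coding genes. With steps of up to 40 kb there were 2 clusters between Ihh and Epha4 and 1 between Epha4 and Pax3, and with at least 2 summits there were 2 in the second gap. With gene-poor set at 25 kb and 100 kb from genes, the density ratio was 0.222 and 0.169 and the signal ratio 0.809 and 0.626. Leaving out each replicate in turn gave density ratios of 0.239 to 0.255, signal ratios of 0.584 to 0.614, family shares of 62.5% to 64.6% and motif shares of 49.2% to 57.4%. The optimal set gave a signal ratio of 0.823. Merging summits within 500 bp, chosen after seeing the data, gave a density ratio of 0.224 and a signal ratio of 0.744. It left 3 clusters between Ihh and Epha4, and steps of at most 10 kb also left 3. The family share was 37.5% within 5 kb and 85.4% within 50 kb, against 28.3% and 81.3% of all protein-coding genes. The motif share was 41.7% within 100 bp, against 52.7% of held-out peaks under the same setting. It was 18.1% against 21.3% at the score of 0.1% of flanking windows, and 61.1% against 66.5% at that of 5%. It was 41.5% against 54.0% in peaks above the median fold enrichment, 36.1% against 38.7% with the second learner, and 48.6% against 54.6% with the first. The cause of these changes was not tested. Depth is unknown, so absence from a list is not absence of binding.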
